A study of Mus musculus with 9 samples.

Results

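The neurotrophin, GDNF and gp130 receptors are represented here by 9 genes, taken as every probe set whose annotated symbol is Ngfr, Ntrk2, Ntrk3, Ret, Gfra1, Gfra2, Gfra3, Il6st or Lifr, with the probe set of highest mean over the 9 arrays kept for each gene. All 9 were found among the 22180 genes of the table, and no filter on low values was applied. They were measured in N1E-115 cells, a mouse neuroblastoma line that extends neurites when serum is withdrawn and laminin is offered. The 3 groups, with 3 arrays each, were cells given a pool of siRNAs against Hmgn5 and sampled at 24 h, cells given control siRNA and sampled at 24 h, and cells given control siRNA and sampled at 4 h. Every group had received 80 nM of siRNA, an overnight starvation in medium without serum and replating on laminin, so an untransfected or undifferentiated state was not among the groups. The arrays hold a single cell line and no Hmgn5 siRNA group at 4 h.

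Neurotrophins act through Trk receptor tyrosine kinases and through the p75 receptor, a member of the tumour necrosis factor receptor family without kinase activity. Ligands of the GDNF family bind a GPI-anchored co-receptor of the Gfra family, and the complex activates the receptor tyrosine kinase Ret. Cytokines such as LIF and CNTF signal through gp130, encoded by Il6st, paired with the LIF receptor, and activate JAK kinases and the transcription factor Stat3. In the sympathetic lineage, from which neuroblastoma arises, Ret and Trk receptors are known for their part in survival, differentiation and axon growth, and gp130 cytokines for changing the transmitter that neurons make.

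Array values are log2 expression after RMA, a procedure that corrects background, makes the distributions of the arrays alike and summarises the probes of a probe set. A difference of 1 is therefore a doubling of signal. Changes were called in a limma fit of the 9 arrays, where p-values adjusted by Benjamini and Hochberg's method across the 22180 genes fell under 0.05. Probe sets differ in brightness for reasons other than transcript number, so levels are compared between groups for each gene and not between genes. Whether fewer cells carried a transcript or each cell held less of it cannot be told apart in RNA from whole cultures.

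The labels were checked on Hmgn5 itself, which encodes a nucleosome-binding protein. It read 3.53, 3.45 and 3.50 with Hmgn5 siRNA at 24 h, 4.77, 4.66 and 4.69 with control siRNA at 24 h, and 4.53, 4.23 and 4.57 with control siRNA at 4 h. Against the 24 h control its signal fell by 1.21 on the log2 scale, to 43.1% of the control (limma adjusted p = 0.00367). An exact permutation test (two-sided) gave p = 0.1, and no split of 3 and 3 arrays can give less. Leaving out Hmgn5 siRNA replicate 2, Hmgn5 siRNA replicate 3 or control 24 h replicate 1 ended the Hmgn5 call (adjusted p = 0.0552, 0.0506 and 0.0558). Of 8 sympathetic markers 6 were measured, and their probe sets exceeded 85.1% to 98.3% of all probe sets. Among 20 measured markers of endothelium, leukocytes, fibroblasts and glia, 0 were called in any of the 3 comparisons, where 0.0135% to 4.34% of all genes were called. Their probe sets exceeded 12.8% to 77.3% of all probe sets, the lowest and the highest being fibroblast markers. Calls compare groups and do not tell whether such cells were present. Control 4 h replicate 2 stood apart from the other arrays, with a lowest correlation of 0.978 with another array, against at least 0.991 among the remaining 8. Its array weight was 0.198, and the other weights lay between 0.789 and 1.74. A difference over time is also given without it where that ended or made a call, turned the sign or moved the value by over 1.5 times. Without it 2.64% of all genes were called higher over time and 2.94% lower.

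Between 4 h and 24 h in control cells, the p75 receptor gene Ngfr rose and the gp130 gene Il6st fell, and the other 7 receptor genes did not pass. The calls were thus 1 of 9 higher and 1 of 9 lower, where 4.34% of all genes were called, 2.17% higher and 2.17% lower. At Hmgn5 knockdown none of the 9 passed in limma, where 0.0135% of all genes were called, 0.00902% higher and 0.00451% lower. An unadjusted p under 0.05 was reached by 3 of the 9 at knockdown and 4 of the 9 over time, beside 5.25% and 18% of all genes. Between Hmgn5 siRNA at 24 h and control siRNA at 4 h, a comparison in which siRNA and time differ together, Ngfr was higher and the TrkC gene Ntrk3 lower, where 2.57% of all genes were called, 1.52% higher and 1.04% lower. These comparisons share arrays with each other, so their values are set side by side for each gene and not treated as separate evidence.

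**Figure D1:**
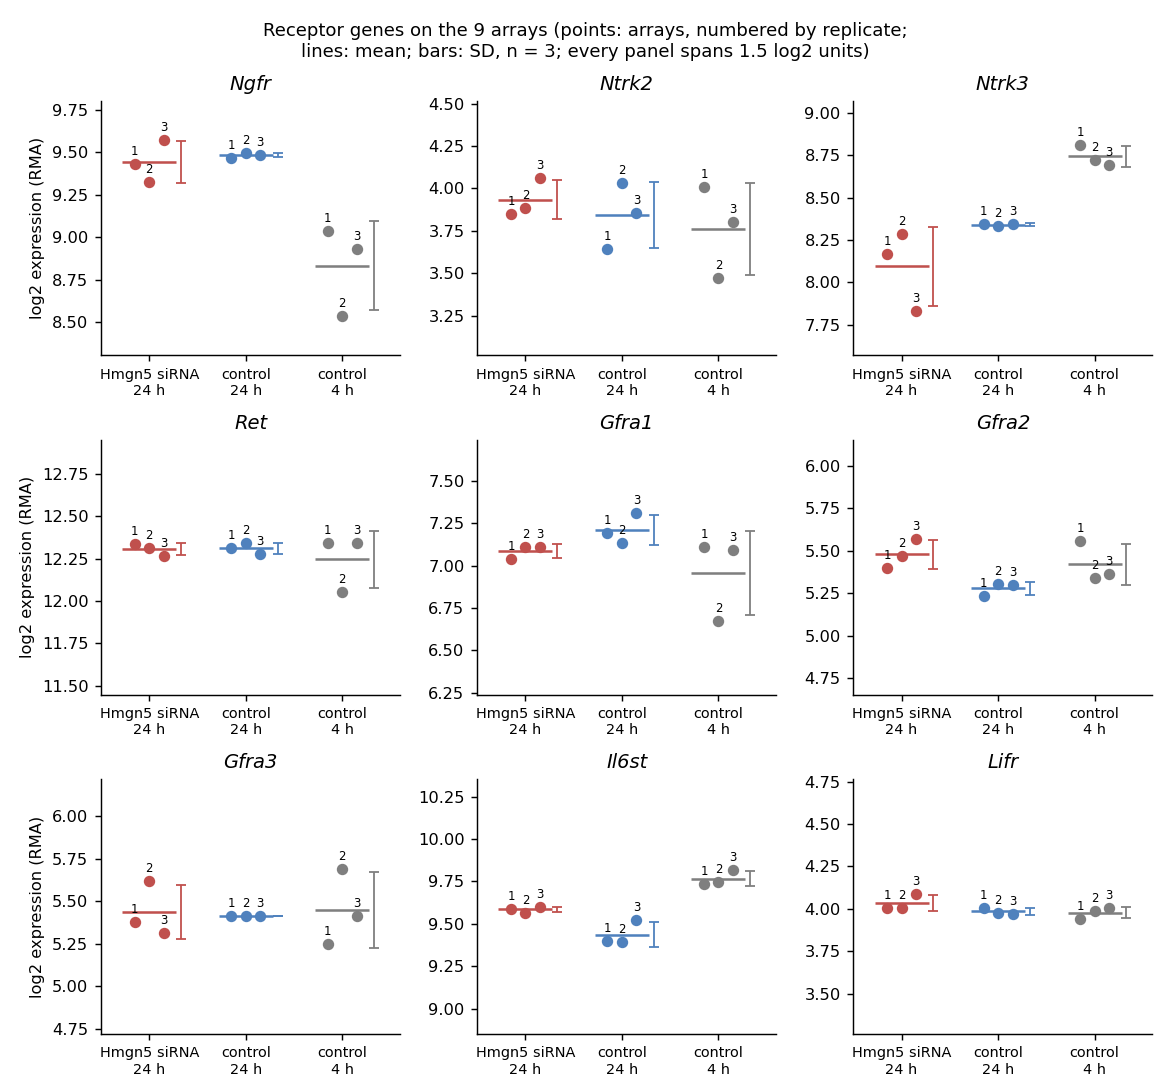
Log2 expression (RMA, vertical axis) of the 9 receptor genes on each array, with points numbered by replicate, lines at the group mean and bars for the SD (n = 3); each panel spans the same height in log2 units. The Ngfr points at 24 h lie between 9.33 and 9.57 over both siRNA groups and those at 4 h between 8.53 and 9.03, and Il6st is highest at 4 h.

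Ngfr encodes p75, which binds all neurotrophins with similar affinity and, with sortilin, binds their precursors. It read 9.43, 9.33 and 9.57 with Hmgn5 siRNA at 24 h, 9.47, 9.49 and 9.49 with control siRNA at 24 h, and 9.03, 8.53 and 8.93 with control siRNA at 4 h. Both 24 h groups lay wholly above the 4 h group and overlapped each other. The probe set exceeded 85.1% to 92.3% of the probe sets on its array, so it was well up in the range of signals on each of the 9. Over time in control cells the rise was 1.57-fold, a log2 difference of 0.65 (SE 0.12, 95% confidence interval 0.38 to 0.92; limma adjusted p = 0.0182), and 99.5% of all genes had a smaller difference. Hmgn5 siRNA at 24 h stood 0.61 above control siRNA at 4 h (SE 0.12, adjusted p = 0.0315; 0.46 without control 4 h replicate 2), and -0.039 from control siRNA at 24 h (95% confidence interval -0.31 to 0.23, adjusted p = 0.999). Control 4 h replicate 2 gave the lowest Ngfr value. Without it the rise over time was 0.50 (adjusted p = 0.0109). Dropping any single 24 h control array ended the call over time (adjusted p 0.0678 to 0.0712), as did fitting only the 2 groups compared (0.0679) and fitting all 41345 probe sets (0.0562). The call against control siRNA at 4 h ended in 9 of 19 alternatives (adjusted p up to 0.130).

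Il6st encodes gp130, the signalling chain shared by receptors of the interleukin 6 family. It read 9.59, 9.57 and 9.60 with Hmgn5 siRNA at 24 h, 9.40, 9.39 and 9.52 with control siRNA at 24 h, and 9.73, 9.75 and 9.81 with control siRNA at 4 h. The 3 groups did not overlap, with the 4 h control highest, the knockdown between and the 24 h control lowest. The fall over time in control cells, to 79.6% of the 4 h signal, was a log2 difference of -0.33 (SE 0.06, 95% confidence interval -0.46 to -0.19; limma adjusted p = 0.0175). Neither neighbouring pair in that order passed. Hmgn5 siRNA differed from control siRNA at 24 h by 0.15 (95% confidence interval 0.01 to 0.28, adjusted p = 0.926) and from control siRNA at 4 h by -0.18 (-0.32 to -0.05, adjusted p = 0.171). Without control 4 h replicate 2 the difference over time was -0.34 (adjusted p = 0.0192). The call over time ended when control 24 h replicate 1 (adjusted p = 0.0727), control 24 h replicate 2 (0.0711) or control 4 h replicate 3 (0.0562) was dropped, with arrays centred on their medians (0.0589) and in a fit of only the 2 groups compared (0.0696).

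The promoters of these 2 genes, the ones called over time in control cells, are shown as the sequence upstream of their start sites. They come from RefSeq (GRCm38.p6), which held a promoter entry for 5 of the 9 genes in the table used, Ntrk3 not among them, and capitals mark the GC box GGGCGG on either strand.
Ngfr, chr11:95587699-95587948, minus strand: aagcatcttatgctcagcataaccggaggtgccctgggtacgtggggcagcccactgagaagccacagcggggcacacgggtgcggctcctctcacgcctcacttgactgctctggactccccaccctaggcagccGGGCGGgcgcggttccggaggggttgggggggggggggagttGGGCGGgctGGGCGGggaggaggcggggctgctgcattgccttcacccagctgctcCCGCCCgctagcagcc
Il6st, chr13:112463820-112464069, plus strand: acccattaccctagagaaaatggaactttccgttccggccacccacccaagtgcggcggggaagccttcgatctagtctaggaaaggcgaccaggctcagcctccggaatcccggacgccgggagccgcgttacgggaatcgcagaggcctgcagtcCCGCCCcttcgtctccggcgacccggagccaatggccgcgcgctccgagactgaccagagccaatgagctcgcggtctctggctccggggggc
Both windows of 250 bases were rich in G and C, with 70.4% in Ngfr and 66.0% in Il6st. The GC box occurred 4 times upstream of Ngfr and once upstream of Il6st, and 32.7% of 32851 promoter windows of that length hold at least 1. The CCAAT box occurred 0 times upstream of Ngfr and 2 times upstream of Il6st, and 33.8% of windows hold it on either strand. Neither window held the STAT motif TTCNNNGAA (in 7.02% of windows) or the EGR motif GCGNGGGCG (in 4.70%, and able to overlap a GC box), searched on both strands. These matches describe letters in the windows, and no binding was measured.

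Ntrk3 encodes TrkC, the receptor tyrosine kinase for neurotrophin 3. It read 8.17, 8.28 and 7.83 with Hmgn5 siRNA at 24 h, 8.35, 8.33 and 8.35 with control siRNA at 24 h, and 8.81, 8.72 and 8.69 with control siRNA at 4 h. The 3 groups were again separate, here with the knockdown lowest and the 4 h control highest. Between Hmgn5 siRNA at 24 h and control siRNA at 4 h the signal was lower, at 63.8% (log2 difference -0.65, SE 0.10, 95% confidence interval -0.88 to -0.42; limma adjusted p = 0.0136). That call was kept when any 1 array was left out (adjusted p 0.0208 to 0.0495) and ended in a fit of only the 2 groups compared (0.0783) and in a fit of all 41345 probe sets (0.0509). Neither part of that span passed. The difference over time in control cells was -0.40 (95% confidence interval -0.63 to -0.17, adjusted p = 0.0641), and that at knockdown was -0.25 (-0.48 to -0.01, adjusted p = 0.927). The difference over time passed in 4 alternatives, namely a fit of only the 2 groups (adjusted p = 0.0356), array weights (0.0348), the dimmest genes left out (0.0449) and Hmgn5 siRNA replicate 3 left out (0.015). Hmgn5 siRNA replicate 3 held the lowest value, and without it the knockdown difference was -0.11.

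**Figure D2:**
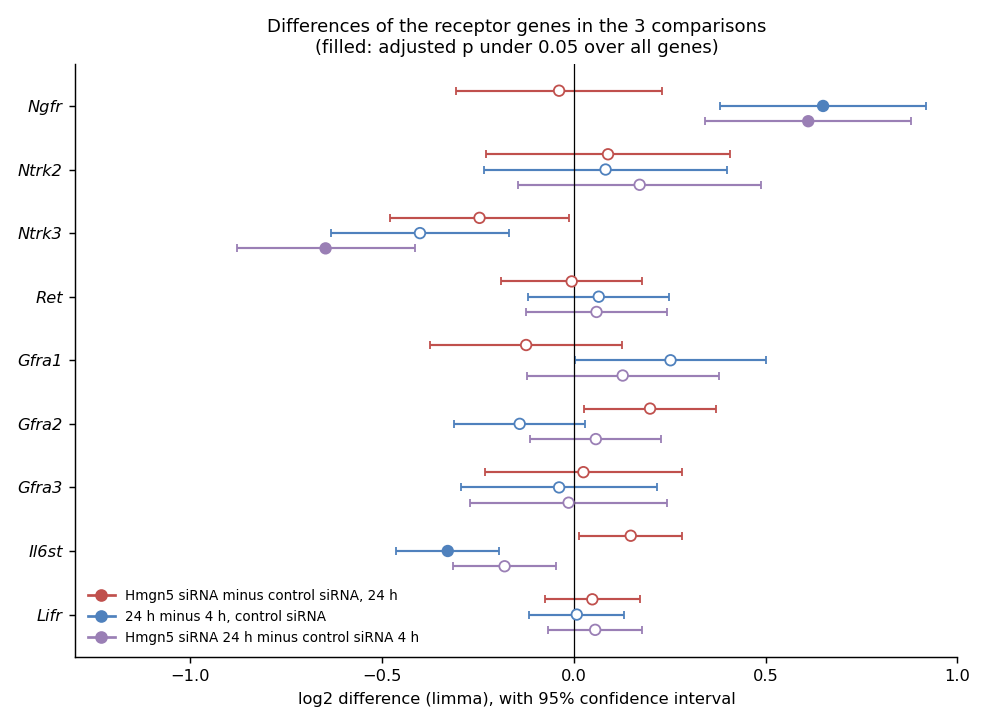
Log2 differences (horizontal axis) of the 9 receptor genes with 95% confidence intervals from limma, for Hmgn5 siRNA against control siRNA at 24 h, 24 h against 4 h in control cells, and Hmgn5 siRNA at 24 h against control siRNA at 4 h; filled points passed at an adjusted p under 0.05. Filled points are Ngfr (0.65 over time, 0.61 in the comparison of both), Il6st (-0.33 over time) and Ntrk3 (-0.65 in the comparison of both).

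Ntrk2 encodes TrkB, the kinase receptor for BDNF and neurotrophin 4, and its probe set was dim. It read 3.85, 3.88 and 4.06 with Hmgn5 siRNA at 24 h, 3.64, 4.03 and 3.86 with control siRNA at 24 h, and 4.01, 3.47 and 3.80 with control siRNA at 4 h, above 13.1% to 27.9% of probe sets. The groups overlapped throughout. Its differences were 0.089 at knockdown (95% confidence interval -0.23 to 0.41, adjusted p = 0.999) and 0.083 over time (-0.23 to 0.40, adjusted p = 0.820). Its lowest value was on control 4 h replicate 2, without which the difference over time was -0.063. The files give no detection call, so whether this probe set stood above background was not tested.

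Ret, the kinase that receives GDNF-family signals, had a bright signal that was nearly flat on 8 of the 9 arrays. It read 12.33, 12.31 and 12.27 with Hmgn5 siRNA at 24 h, 12.31, 12.34 and 12.28 with control siRNA at 24 h, and 12.34, 12.05 and 12.34 with control siRNA at 4 h, above 99.3% to 99.6% of probe sets on each array. The low 12.05 was on control 4 h replicate 2, and the groups overlapped. Differences were -0.0058 at knockdown (95% confidence interval -0.19 to 0.18, adjusted p = 0.999) and 0.065 over time (-0.12 to 0.25, adjusted p = 0.742). Without control 4 h replicate 2 the time difference was -0.032 (adjusted p = 0.805).

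Gfra1, the co-receptor that binds GDNF, read 7.04, 7.11 and 7.11 with Hmgn5 siRNA at 24 h, 7.19, 7.13 and 7.31 with control siRNA at 24 h, and 7.11, 6.67 and 7.09 with control siRNA at 4 h. The 24 h control arrays lay above the arrays of both other groups, which overlapped each other. The difference over time was 0.25 (95% confidence interval 0.0018 to 0.50, adjusted p = 0.273), and it was 0.11 without control 4 h replicate 2, which held the lowest value. At knockdown the difference was -0.12 (-0.37 to 0.13, adjusted p = 0.994). A second Gfra1 probe set, dimmer with values between 3.58 and 3.91, differed by -0.083 over time and by 0.036 at knockdown. These 2 probe sets thus had opposite signs in both comparisons. Another Gfra1 probe set, which carries several symbols and had values between 5.41 and 5.96, differed by 0.062 over time and by -0.054 at knockdown. Its signs were those of the brightest probe set in both comparisons. No Gfra1 probe set passed in either.

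Gfra2, the co-receptor for neurturin, read 5.40, 5.47 and 5.57 with Hmgn5 siRNA at 24 h, 5.24, 5.30 and 5.30 with control siRNA at 24 h, and 5.56, 5.34 and 5.36 with control siRNA at 4 h. The 24 h control arrays lay below those of the other groups, which overlapped. At knockdown the difference was 0.20 (95% confidence interval 0.03 to 0.37, unadjusted p = 0.0274 and adjusted p = 0.926 in limma). Over time it was -0.14 (-0.31 to 0.03, adjusted p = 0.376).

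Gfra3, the co-receptor for artemin, read 5.38, 5.62 and 5.31 with Hmgn5 siRNA at 24 h, 5.41 on each control array at 24 h, and 5.25, 5.69 and 5.41 with control siRNA at 4 h. The 24 h control values lay within the range of both other groups. A single deposited value stood on 4 of the 9 arrays for Gfra3, as it did for Lifr, and 53.3% of all genes had a value repeated exactly between arrays. On all 3 control 24 h arrays 1.52% of genes held 1 value, and Gfra3 was among them, with an SD of 0 in that group. Differences were 0.025 at knockdown (95% confidence interval -0.23 to 0.28) and -0.039 over time (-0.29 to 0.22), with adjusted p = 0.999 and 0.904. The difference over time was 0.082 without control 4 h replicate 2, which held the highest value.

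Lifr, the LIF receptor chain that pairs with gp130, was dim and nearly flat. It read 4.00, 4.00 and 4.09 with Hmgn5 siRNA at 24 h, 4.00, 3.98 and 3.97 with control siRNA at 24 h, and 3.94, 3.98 and 4.00 with control siRNA at 4 h, above 24.1% to 28.4% of probe sets. The groups overlapped in every comparison. Its differences were 0.048 at knockdown (95% confidence interval -0.075 to 0.17, adjusted p = 0.999) and 0.0074 over time (-0.12 to 0.13, adjusted p = 0.963; 0.011 without control 4 h replicate 2). Its partner Il6st was thus called over time while Lifr was not, and the difference between the 2 changes was not tested.

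Counted without a threshold on p, 2 receptor genes had all 3 knockdown arrays above and 2 had all 3 below the 24 h control arrays. These were Gfra2 and Il6st above, and Ntrk3 and Gfra1 below. Of all genes 12.3% did not overlap, 6.65% above and 5.62% below. Over time in control cells 2 of the 9 lay above (Ngfr and Gfra1) and 3 below (Ntrk3, Gfra2 and Il6st), where 21.3% of all genes did not overlap, 11.3% above and 9.98% below. Between Hmgn5 siRNA at 24 h and control siRNA at 4 h, 1 of the 9 lay above (Ngfr) and 2 below (Ntrk3 and Il6st), where 18.9% of all genes did not overlap, 10.3% above and 8.59% below. There 3 of the 9 had an unadjusted p under 0.05, beside 15.7% of all genes. Across the 9 genes the median difference was 0.025 at knockdown and 0.0074 over time, beside -0.0019 and 0.016 over all genes. In size, disregarding sign, the median was 0.089 at knockdown and 0.14 over time, beside 0.062 and 0.093 over all genes. At knockdown and over time alike, 5 of the 9 lay above 0 and 4 below. Between Hmgn5 siRNA at 24 h and control siRNA at 4 h, 6 lay above and 3 below.

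**Figure D3:**
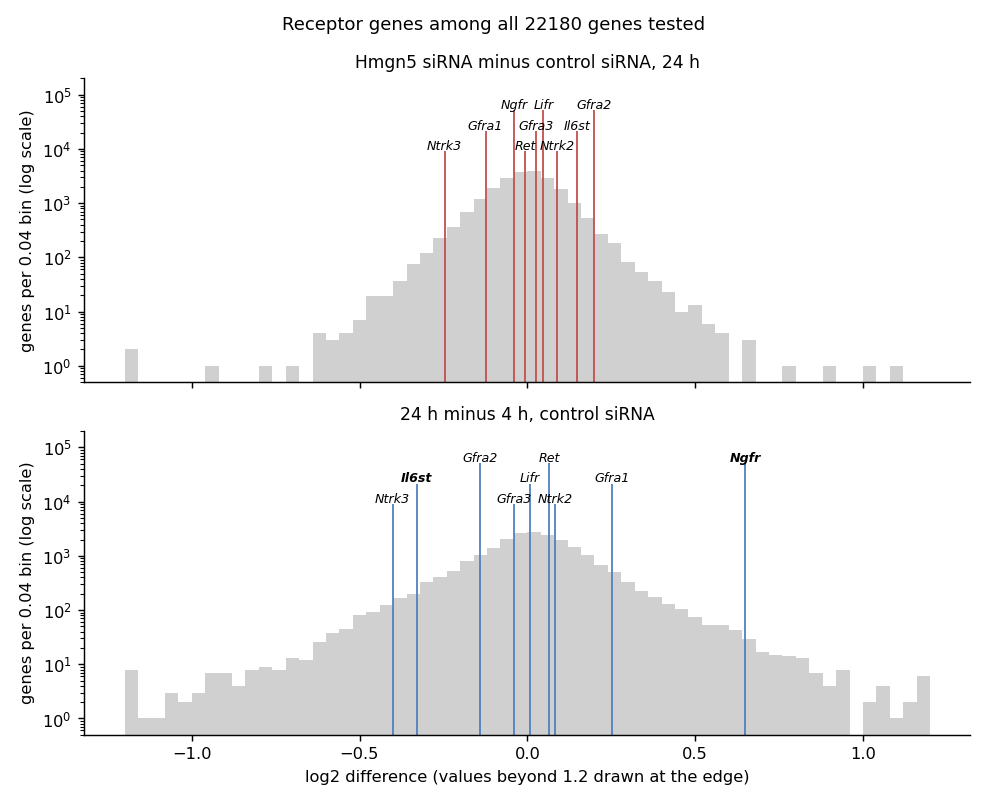
Histograms of the log2 differences (horizontal axis) of all 22180 genes, with the number of genes per bin on a log scale (vertical axis), for Hmgn5 siRNA against control siRNA at 24 h (top) and 24 h against 4 h in control cells (bottom); lines mark the 9 receptor genes and bold names those that passed. Ngfr lies near the upper end of the lower panel at 0.65, and in the upper panel every receptor gene lies between -0.25 and 0.20.

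The other genes of these pathways were read from 5 lists. Ligands had 13 measured genes and 0 were called in any of the 3 comparisons. Among those with the smallest p over time, Clcf1, a ligand of the CNTF receptor complex, differed by -0.27 (adjusted p = 0.171), and the cytokine genes Il27, Il11 and Il6 by 0.22, 0.13 and -0.42. Without control 4 h replicate 2, Clcf1 passed at -0.36 (adjusted p = 0.0371), and Il11 differed by 0.078. The ligands called lower were then 1 of 13, where 2.94% of all genes were. At knockdown Il6 differed by 0.66 with a wide spread (SE 0.27, unadjusted p = 0.0359, limma adjusted p = 0.926) and Il27 by -0.21. The Il6 values were 5.46, 5.16 and 6.02 with Hmgn5 siRNA, against 5.22, 4.31 and 5.12 with control siRNA at 24 h. The Il6 groups overlapped.

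Further receptors and co-receptors had 16 measured genes, of which 0 were called in any of the 3 comparisons. Sort1, which encodes sortilin, the partner of p75 for precursor neurotrophins, differed by 0.21 over time (adjusted p = 0.131) and by -0.13 at knockdown. Cntfr, the CNTF-binding chain that works with gp130 and the LIF receptor, differed by 0.21 over time, and by 0.067 without control 4 h replicate 2. Sorcs2, a sortilin relative, differed by 0.12 and Il31ra by 0.085. At knockdown Osmr, the oncostatin M receptor chain, differed by -0.15. None of these values passed.

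Adaptors and relays of Trk, Ret and p75 had 30 measured genes, with 1 called higher and 0 lower over time, where 2.17% of all genes were called in each direction. The gene was Irs1, an insulin receptor substrate that also serves other tyrosine kinases. It read 7.77, 7.76 and 7.63 with Hmgn5 siRNA at 24 h, 7.86, 7.57 and 7.61 with control siRNA at 24 h, and 7.30, 6.89 and 7.20 with control siRNA at 4 h. Both 24 h groups lay above the 4 h group. Irs1 rose by 0.55 over time (SE 0.12, adjusted p = 0.0285), and it was 0.59 higher with Hmgn5 siRNA at 24 h than with control siRNA at 4 h (adjusted p = 0.0311). With the probe sets of the gene averaged, the rise over time was 0.37 (adjusted p = 0.0200). The call over time ended when any single 24 h control array was dropped (adjusted p 0.0635 to 0.103), without Hmgn5 siRNA replicate 1 or 2 (0.0534 and 0.0529), without control 4 h replicate 3 (0.0595) in a fit of only the 2 groups (0.0981) and in one of all 41345 probe sets (0.0779). The adaptor gene Grb2 (0.21), the Ras exchange factor gene Sos1 (-0.22) and the adaptor gene Shc3 (0.36) did not pass over time. Without control 4 h replicate 2, Grb2 differed by 0.13 and Sos1 by -0.14. The adaptors called higher were then 2 of 30, Irs1 and the ubiquitin ligase gene Cblb, where 2.64% of all genes were. Cblb is named after its value was seen, and with no array left out it differed by 0.11 over time (limma adjusted p = 0.609). At knockdown 0 of 30 were called, with Gab1 at -0.14 and Frs3 at -0.13 having the smallest p.

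JAK-STAT relays and inhibitors had 17 measured genes, with 0 called higher and 1 lower over time, where 2.17% of all genes were called in each direction. Ptpn2, a tyrosine phosphatase that acts on JAK kinases and STAT proteins, read 8.33, 8.22 and 8.31 with Hmgn5 siRNA at 24 h, 8.11, 8.22 and 8.21 with control siRNA at 24 h, and 8.51, 8.78 and 8.51 with control siRNA at 4 h. Both 24 h groups lay below the 4 h group. Ptpn2 fell by 0.42 over time (SE 0.08, adjusted p = 0.0245), a call that ended when any single 24 h control array was dropped (adjusted p 0.0717 to 0.0974) in a fit of only the 2 groups (0.0869) and in one of all 41345 probe sets (0.0657). Stat3 (0.24), Tyk2 (0.25) and Jak2 (-0.21) did not pass. Jak2 differed by -0.11 without control 4 h replicate 2. At knockdown 0 of 17 were called, with the kinase gene Jak1 at -0.12 and the inhibitor gene Socs2 at 0.11 having the smallest p.

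Response genes of growth factors and Stat3 had 24 measured genes, and 0 passed in any of the 3 comparisons with all 9 arrays fitted. Without control 4 h replicate 2, 3 of 24 were called lower over time, Arc, Spred1 and Mcl1, where 2.94% of all genes were. Arc was then also the 1 called lower between Hmgn5 siRNA at 24 h and control siRNA at 4 h, where 1.53% of all genes were. Mcl1 is named after its value was seen, and with all 9 arrays it differed by -0.078 over time (limma adjusted p = 0.825). Spred1, an inhibitor of Ras signalling, had the smallest p of its list in both comparisons. It read 9.64, 9.68 and 9.64 with Hmgn5 siRNA at 24 h, 9.37, 9.40 and 9.37 with control siRNA at 24 h, and 9.60, 9.54 and 9.66 with control siRNA at 4 h. The 24 h control group lay below the other groups, which overlapped. Its difference was 0.27 at knockdown (SE 0.06, unadjusted p = 0.000708, limma adjusted p = 0.365) and -0.22 over time (adjusted p = 0.0605), or -0.25 without control 4 h replicate 2 (adjusted p = 0.0284). The growth regulator Myc (-0.23), the NF-kappa-B cofactor gene Bcl3 (0.19) and the immediate-early gene Arc (-0.40) did not pass over time, nor did Spry2 (0.28), an inhibitor of receptor tyrosine kinase signalling, at knockdown. Arc read 8.92, 8.93 and 8.87 with control siRNA at 24 h, and 9.51, 8.87 and 9.53 with control siRNA at 4 h. The low 4 h value was on replicate 2, and without it the difference was -0.61 (adjusted p = 0.00139), while that of Myc was -0.14. List medians over time were 0.0026 for ligands, 0.035 for further receptors, 0.058 for adaptors, -0.046 for JAK-STAT genes and -0.055 for response genes, beside 0.016 over all genes.

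**Figure D4:**
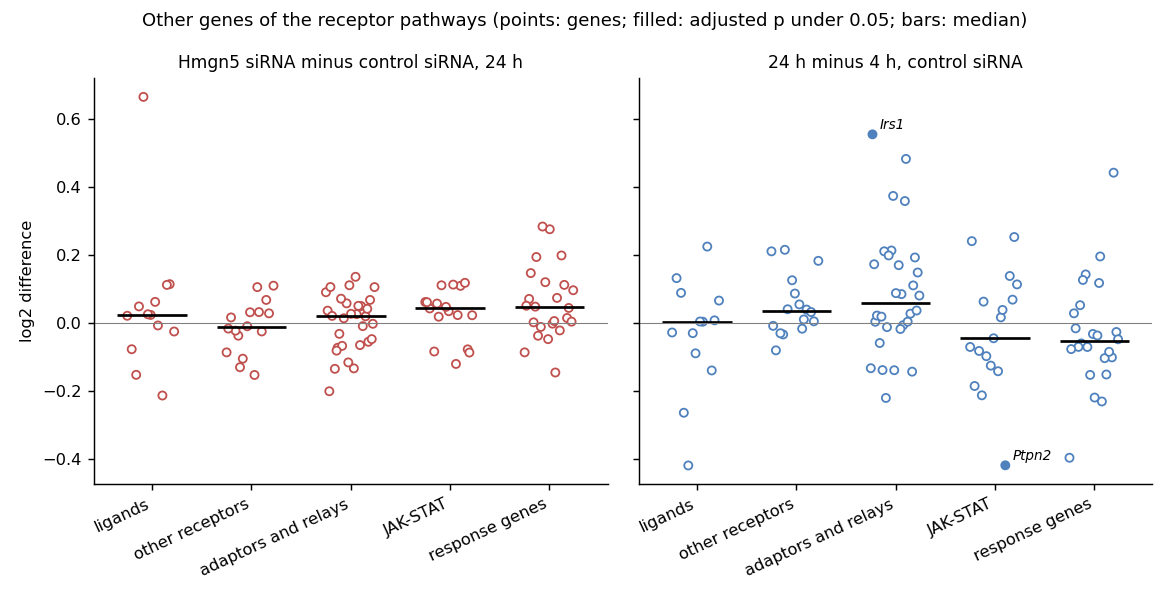
Log2 differences (vertical axis) of the genes of 5 pathway lists (horizontal axis), for Hmgn5 siRNA against control siRNA at 24 h (left) and 24 h against 4 h in control cells (right), with bars at the list medians and filled points for genes that passed. The filled points are Irs1 at 0.55 and Ptpn2 at -0.42, both over time.

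Genes of sympathetic identity were read over the same interval. Of the 6 measured markers 2 were called higher over time, where 2.17% of all genes were, Dbh (dopamine beta-hydroxylase) by 0.80 (adjusted p = 0.00535) and Th (tyrosine hydroxylase) by 0.53 (adjusted p = 0.0188). The other 4 did not pass, with Gata3 at 0.19, Stmn2 at 0.19, Isl1 at 0.054 and Hand2 at -0.15. Isl1 turned sign without control 4 h replicate 2. At knockdown 0 of the 6 passed, and Dbh differed by -0.42 (unadjusted p = 0.00306, limma adjusted p = 0.595). Between Hmgn5 siRNA at 24 h and control siRNA at 4 h, 1 of the 6 was called higher, where 1.52% of all genes were. That was Th at 0.46 (limma adjusted p = 0.0439). Without control 4 h replicate 2, 0 of the 6 were called there, where 2.01% of all genes were called higher. Dropping any single 24 h control array ended the Th call over time (adjusted p 0.0585 to 0.0774), as did fitting all 41345 probe sets (0.0555). The mean level of the 6 was 10.36 to 10.43 with Hmgn5 siRNA at 24 h, 10.42 to 10.48 with control siRNA at 24 h and 10.06 to 10.24 with control siRNA at 4 h. The part of this shift in the Ngfr, Il6st and Ntrk3 values was not tested.

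Genes whose profile over the 9 arrays lay nearest to a called receptor were ranked by root mean square distance after each gene's own mean was removed, over 17287 genes with other than clone or predicted names. For Ngfr, whose own root mean square deviation was 0.33, these were Rangap1, Rnf5 and Scrn1, at distances of 0.0667, 0.0682 and 0.0736 log2 units. For Il6st, with a deviation of 0.14, they were Fzd6, Septin2 and Dusp13, at 0.0345, 0.0398 and 0.0404. The nearest to Ntrk3, with a deviation of 0.29, were Vwa5b1, Lgi3 and Tns1, at 0.0730, 0.0961 and 0.0969. These distances describe likeness over 9 arrays that share their processing.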

How the data were processed

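Per the labels' protocols, total RNA from N1E-115 cells was amplified to sense-strand cDNA, biotin-labelled and hybridised, 1 array per sample. The deposited table holds 1 log2 value for each probe set and array, made with oligo and RMA per the submitters' processing notes. No versions or genome build are given in the sources used here. Values ran from 2.13 to 13.9, with array medians of 5.16 to 5.30. Quantile normalisation hides changes shared by most genes.

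Of 41345 probe sets, 23521 carried 1 gene symbol. Those with several symbols (1814) or none (16010) were left out. A gene was read from its probe set of highest mean, giving 22180 genes, of which 21994 matched RefSeq by gene ID with no symbol differing.

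Groups came from the sample titles. Differences were fitted with limma 3.58.1 in R 4.3.3 (lmFit, eBayes, all 9 arrays, group means). The fitting script was first checked on simulated data, from which no value is reported. No label says whether replicates were separate cultures, so the p-values rest on a spread that may be technical only. Precision is limited by the number of arrays.

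The receptors and lists were chosen with earlier results of these data known. Named genes were Hmgn5, the 9 receptors with their other single-symbol probe sets, and from each list the 4 smallest p over time and 2 at knockdown. For called receptors the 3 nearest profiles were added. The sympathetic markers, Cblb, Mcl1 and the Gfra1 probe set with several symbols are named outside this rule, after their values were seen. Alternatives were a replicate block, a fit of 2 groups, a trended robust prior, array weights, median centring, cyclic loess, a filter on dim genes, other summaries over probe sets, a fit of all probe sets and leaving out each array.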

Additional observations from a re-analysis of the deposited data

How the results depend on the processing

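Directions of the 3 receptors called anywhere (Ngfr, Il6st and Ntrk3) in their called comparisons held under all alternatives run. Of 9 pairs of same-numbered arrays, 2 had deviations correlated over 0.1 (range 0.0085 to 0.285), both of them between the 24 h groups. Between those groups same-numbered arrays gave 0.184, 0.089 and 0.285, and differently numbered arrays gave -0.22 to 0.081. Between the 4 h group and the 24 h groups, same-numbered arrays gave 0.0085 to 0.092 and differently numbered arrays -0.11 to 0.023. The main fit did not pair the samples, and whether the numbers mark shared cultures or handling was not settled. With the replicate number as a block, the receptors called stayed at 2 over time (Ngfr and Il6st), 2 in Hmgn5 siRNA at 24 h against control siRNA at 4 h (Ngfr and Ntrk3) and 0 at knockdown. Genes called under that block were 1 at knockdown, against 3 in the unpaired fit. Receptors called at knockdown were 0 under every alternative. In a fit of only the 2 groups compared, receptors called were 1 over time (Ntrk3) and 0 in the comparison of siRNA and time together, and genes called were 280 and 113, against 963 and 569. Array weights called 7 genes at knockdown, 1685 over time and 1226 in the comparison of both, and a trended robust prior 5 at knockdown. Fitting and adjusting over all 41345 probe sets, annotated or not, an alternative chosen after seeing the data, left 1 receptor over time (Il6st) and 0 in the comparison of both, and 1, 392 and 175 genes at knockdown, over time and in the comparison of both. Median centring left 1 receptor over time (Ngfr). It gave 477 genes higher and 309 lower over time, against 481 and 482, and 375 and 148 in the comparison of both, against 338 and 231. Leaving out 1 array gave 0 to 2 genes at knockdown, 310 to 1238 over time and 165 to 784 in the comparison of both, with 0 to 3 receptors called over time and 1 to 2 in the comparison of both. Over time no receptor was called without control 24 h replicate 1 or 2. Ngfr lost its call in the comparison of both in a fit of only the 2 groups (adjusted p = 0.130) and without any 1 array except control 4 h replicates 1 and 2 (up to 0.114). Signs of receptors that did not pass turned at knockdown for Ret with array weights (0.00062) and median centring (0.0027). Over time they turned with array weights for Ntrk2 (-0.029), Ret (-0.011) and Gfra3 (0.042) and with median centring for Gfra3 (0.00079). In the comparison of both they turned with array weights for Ret (-0.010) and Gfra3 (0.078) and with median centring for Gfra3 (0.034). With 1 array left out, differences at knockdown ran from -0.10 to 0.019 for Ngfr, -0.066 to 0.085 for Gfra3, -0.023 to 0.013 for Ret and -0.012 to 0.18 for Ntrk2. Over time they ran from -0.010 to 0.022 for Lifr, -0.063 to 0.21 for Ntrk2, -0.032 to 0.11 for Ret and -0.14 to 0.082 for Gfra3, and in the comparison of both from -0.11 to 0.11 for Gfra3, -0.037 to 0.11 for Ret and -0.016 to 0.20 for Gfra1. The causes were not tested. Hmgn5, Ntrk2 and Lifr gave no value with the dimmest genes left out, being among them. The alternatives for Hmgn5, Irs1, Ptpn2, Dbh and Th, and the values of list genes and markers without control 4 h replicate 2, were chosen after seeing the data. Among these Isl1 turned sign over time (-0.089).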
